A study of Saccharomyces cerevisiae with 4 samples.

Results

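The Pho85 cyclins of Saccharomyces cerevisiae are the 10 proteins that bind and direct the cyclin-dependent kinase Pho85. Their genes were chosen by name as PCL1, PCL2, PCL5 to PCL10, CLG1 and PHO80, each read from the probe set whose annotation names that gene alone. All 10 had exactly 1 such probe set, among 5656 genes tested in all. Transcript levels came from Affymetrix yeast arrays, with total RNA of exponentially growing cells as the starting material and biotin as the label. The cultures were diluted, regrown to a set density and grown for 3 more hours. The pmt1 pmt2 group held 2 arrays of a strain mutated in PMT1 and PMT2 in the SEY6210 background, and the wild type group held 2 arrays of SEY6210 itself. Per the design text the samples behind the arrays were biologically separate. How PMT1 and PMT2 were altered, which markers the mutant carries and whether 1 isolate or several were grown are not given in the sources used here.

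Pho85 is a kinase whose choice of substrate depends on the cyclin bound to it, so the cyclins link it to separate parts of yeast physiology. The Pcl1,2 subfamily (PCL1, PCL2, PCL9, PCL5 and CLG1) is best known for bud growth, cell polarity and G1 progression, and for turnover of the amino acid regulator Gcn4. The Pho80 subfamily (PHO80, PCL6, PCL7, PCL8 and PCL10) is best known for phosphate sensing and the control of glycogen storage. PMT1 and PMT2 encode O-mannosyltransferases of the endoplasmic reticulum, which put the first mannose on many secretory and cell wall proteins.

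The mutated genes were low where the labels say they should be. PMT2 measured 11.9 and 15.5 on the pmt1 pmt2 arrays, against 2646 and 2771 on the wild type arrays, and PMT1 measured 111 and 104 against 1178 and 809, so PMT1 kept a signal above background. Signals are the deposited linear values without further scaling. The background used here was set at 26.2, the highest signal of 19 bacterial and mouse control probe sets, and 81.6% to 86.0% of genes lay above it on the pmt1 pmt2 arrays and 81.6% to 82.6% on the wild type arrays. The alpha-cell gene STE3 measured 732 and 1120 in pmt1 pmt2, against 899 and 1400 in wild type. SAG1, also an alpha-cell gene, measured 2362 and 1888 against 5518 and 4088, without overlap (0.445-fold, limma adjusted p = 0.502). The a-cell genes STE2, STE6, BAR1 and AGA2 stayed below background on all 4 arrays. Of the other a-cell genes, MFA1 measured 43.8 and 30.3 in pmt1 pmt2 and 24.6 and 38.8 in wild type. MFA2 measured 12.1 and 20.5, under background, against 126 and 96.0 (0.143-fold, limma adjusted p = 0.0836). Arrays numbered 1 and 2 differed in a control: the tail-end to start-end actin ratio was 3.15 in pmt1 pmt2 and 2.99 in wild type on arrays numbered 1, and 1.32 and 1.38 on arrays numbered 2. Changes are therefore also given within each array number, although the labels do not call the number a batch.

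The comparison of pmt1 pmt2 with wild type asks how the Pho85 cyclin transcripts differ in cells mutated for both mannosyltransferases. PCL1 and PCL5 had the highest log2 changes of the family, PCL2, PCL9 and PCL8 had smaller positive values, and CLG1, PHO80, PCL6, PCL7 and PCL10 lay near 0. None of the 10 passed limma's test at an adjusted p under 0.05. That test called 0.283% of all genes higher and 0.106% lower in pmt1 pmt2, and 0 of 10 cannot be told from such shares. At an unadjusted p under 0.05, PCL1 and PCL5 were higher and 0 members lower, against 5.37% and 1.80% of all genes.

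**Figure D1:**
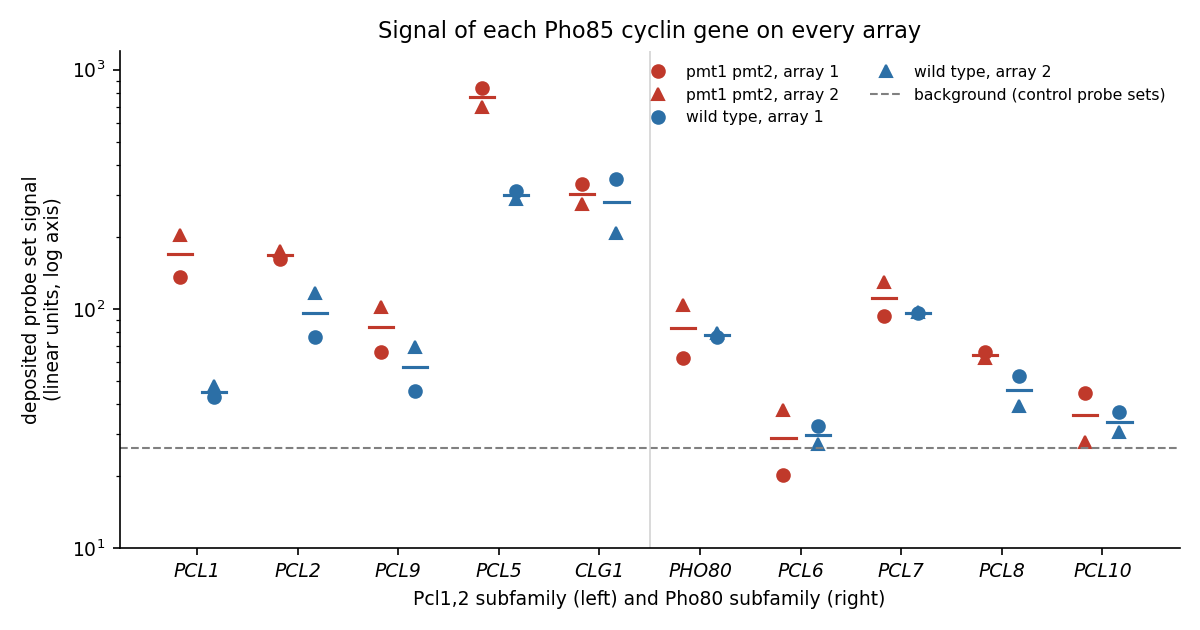
Deposited probe set signals (log axis) of the 10 Pho85 cyclin genes on every array, with pmt1 pmt2 left of wild type in each pair. Circles are arrays numbered 1, triangles arrays numbered 2, short bars group means (n = 2 arrays), and the dashed line is the background of 26.2. Both pmt1 pmt2 points lie above both wild type points for PCL1, PCL2, PCL5 and PCL8, a separation that 18.5% of all genes show. The groups overlap for the other 6 genes.

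PCL1 encodes a G1 cyclin that is transcribed in late G1 and acts with Pho85 at the start of the cell cycle and in bud emergence. Its signal was 136 and 203 on the pmt1 pmt2 arrays, against 42.6 and 47.5 on the wild type arrays. Both mutant arrays lay well above both wild type arrays. The ratio of geometric means was 3.69-fold with a 95% interval of 1.95 to 6.99 (log2 change 1.88 ± 0.38 (SE), n = 2 arrays per group, limma adjusted p = 0.177). Within the arrays numbered 1 and 2 the folds were 3.20 and 4.26. PCL1 ranked 86 among the 5656 genes by signed log2 change, from the highest down, and 75 by limma's p. In RNA of a whole culture, more transcript per cell and more cells in the stage that expresses the gene cannot be told apart.

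PCL2, a second G1 cyclin of the same role whose product overlaps in function with Pcl1, measured 161 and 174 on the pmt1 pmt2 arrays, against 75.9 and 117 on the wild type arrays. The groups did not overlap, but the wild type arrays were spread widely and the fitted change was 1.78-fold with an interval of 0.932 to 3.39 (limma adjusted p = 0.773). Its folds within the numbers were 2.12 and 1.49. PCL9, the paralogue of PCL2 and expressed around the exit from mitosis, measured 65.9 and 102 in pmt1 pmt2, against 45.2 and 69.3 in wild type. The upper wild type array exceeded the lower mutant array, so the groups overlapped, while the folds within the numbers were 1.46 and 1.47. Its pooled change was 1.46-fold with an interval of 0.719 to 2.98 (limma adjusted p = 0.973).

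PCL5 encodes the cyclin with which Pho85 marks Gcn4, the activator of amino acid synthesis genes, for degradation, and is itself a transcriptional target of Gcn4. Its signal was 839 and 701 on the pmt1 pmt2 arrays, against 310 and 287 on the wild type arrays. The groups were far apart relative to the spread within either. The fold was 2.57 with a 95% interval of 1.43 to 4.62 (log2 change 1.36 ± 0.35 (SE), limma adjusted p = 0.323), and 2.71 and 2.44 within the numbers. PCL1 and PCL5 were the 2 members at least 2-fold higher within both array numbers, a criterion that 3.31% of all genes met and 1.54% met in the other direction. CLG1, a cyclin-like Pho85 partner, measured 332 and 273 in pmt1 pmt2, against 350 and 207 in wild type. Its mutant arrays lay between its wild type arrays, and its fold was 1.12 with an interval of 0.561 to 2.23 (limma adjusted p = 0.994).

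In the Pho80 subfamily the folds ran from 0.931 for PCL6 to 1.41 for PCL8. PHO80, the cyclin through which Pho85 holds the phosphate regulator Pho4 inactive when phosphate is plentiful, measured 62.1 and 103 in pmt1 pmt2, against 76.1 and 79.4 in wild type. Its mutant arrays lay on either side of its wild type arrays. The fold was 1.03 with an interval of 0.526 to 2.02 (limma adjusted p = 0.996). A rise or a fall within those bounds cannot be told from none with these arrays. Its log2 change was −0.017 after each array was centred on its median and −0.042 after quantile normalization, so no direction holds for PHO80. PCL8 and its paralogue PCL10 encode cyclins with which Pho85 phosphorylates glycogen synthase. PCL8 measured 65.8 and 62.0 in pmt1 pmt2, against 52.1 and 39.2 in wild type, without overlap. Its fold was 1.41 with an interval of 0.772 to 2.59 (limma adjusted p = 0.952). PCL10 was dim, at 44.5 and 27.6 in pmt1 pmt2 and 37.0 and 30.5 in wild type, and its groups overlapped. Its log2 change was 0.061 ± 0.40 (SE), and −0.022 after quantile normalization.

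PCL6 and its paralogue PCL7 encode cyclins also linked to glycogen metabolism. PCL7 measured 93.5 and 129 in pmt1 pmt2, against 96.0 and 96.8 in wild type, a fold of 1.14 with an interval of 0.617 to 2.10. PCL6 was the dimmest member, at 20.1 and 37.6 in pmt1 pmt2 and 32.2 and 27.1 in wild type. It was the only member with a value below background, on pmt1 pmt2 array 1. Its log2 change was −0.10 ± 0.43 (SE), the single negative value of the family, with −0.68 and 0.47 within the numbers. For both genes limma's adjusted p was 0.994.

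**Figure D2:**
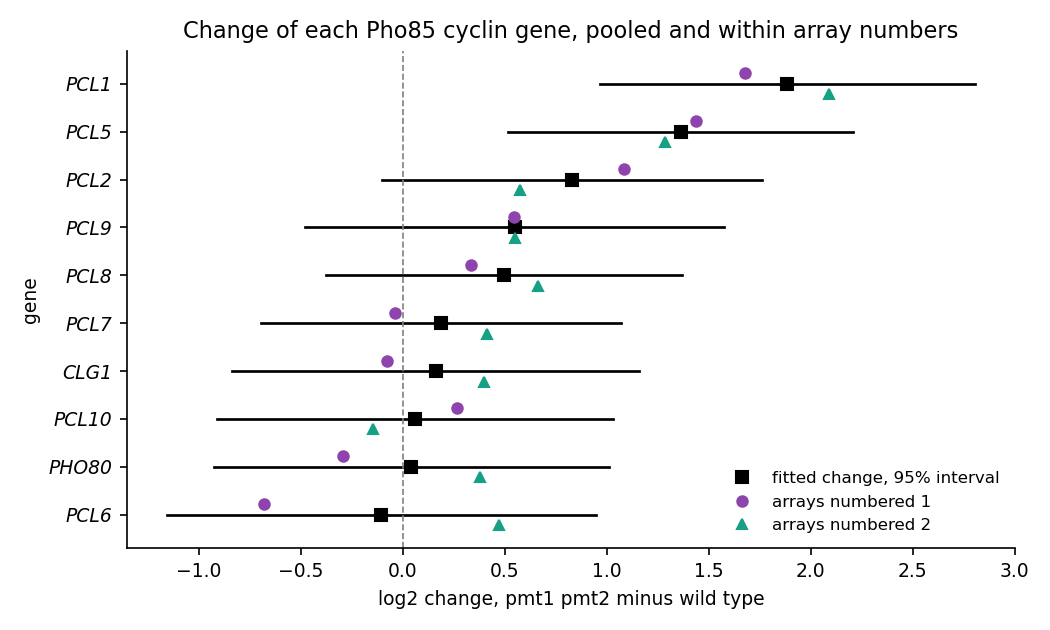
Log2 change (pmt1 pmt2 minus wild type) of each Pho85 cyclin gene, from highest to lowest. Squares with lines are the fitted change and its 95% interval (n = 2 arrays per group), circles and triangles the change within arrays numbered 1 and 2. The intervals of PCL1 and PCL5 lie above 0 before adjustment for multiple testing, and the array numbers fall on opposite sides of 0 for CLG1, PHO80, PCL6, PCL7 and PCL10.

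Over the whole family the median log2 change was 0.34, with 0.30 and 0.51 within the array numbers. The median of all genes was 0.027, with −0.15 and 0.21. The log2 change was above 0 for 9 of the 10 members, against 52.5% of all genes. That count was 8 after each array was centred on its median and 7 after quantile normalization. It was 9 or 7 without pmt1 pmt2 array 1 or 2, and 10 or 7 without wild type array 1 or 2. Within both numbers the log2 change was above 0 for 5 of 10 members, against 32.1% of all genes. These 5 were PCL1, PCL2, PCL9, PCL5 and PCL8. Groups without overlap, with pmt1 pmt2 higher, were found for 4 of 10 members (PCL1, PCL2, PCL5 and PCL8), against 18.5% of all genes. The reverse was found for 0 members, against 14.7% of all genes.

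The subfamilies differed in their medians. The Pcl1,2 subfamily had a median log2 change of 0.83 over 5 genes with a range of 0.16 to 1.88, and the Pho80 subfamily a median of 0.061 over 5 genes with a range of −0.10 to 0.50. No test was made of this difference, since the genes are not replicates. Leaving out 1 array gave medians of 0.54 (wild type array 1 left out) to 1.14 (wild type array 2 left out) for the Pcl1,2 subfamily and of −0.044 (without pmt1 pmt2 array 2) to 0.41 (without pmt1 pmt2 array 1) for the Pho80 subfamily. Paralogue pairs were set side by side. The log2 change of PCL2 exceeded that of PCL9 by 0.28 (0.54 and 0.020 within the numbers), and that of PCL8 exceeded that of PCL10 by 0.44 (0.071 and 0.81). For PCL6 minus PCL7 the difference was −0.29 (−0.64 and 0.060). No test of these differences was run. An exact permutation test with 2 arrays per group cannot go below p = 0.333, which holds for a single gene as well.

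**Figure D3:**
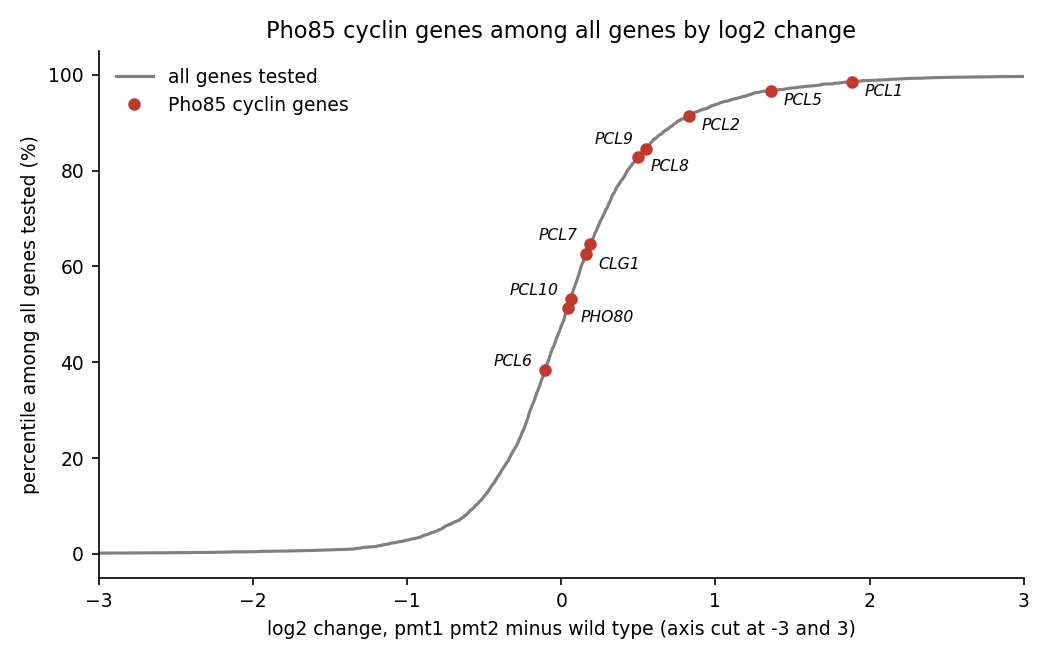
Cumulative distribution of the log2 change (pmt1 pmt2 minus wild type) over the 5656 genes tested (grey line, axis limited to −3 to 3), with the 10 Pho85 cyclin genes as points. PCL1, PCL5 and PCL2 lie at percentiles 98.5, 96.7 and 91.5, and PCL6, the lowest, at 38.4.

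The genes nearest to PCL1 in pattern were SPI1, UBP5 and YGP1. Likeness was the Euclidean distance between the 4 log2 values, each gene centred on its own mean, among 3538 other genes with a mean log2 signal of at least 6. The distances were 0.116 for SPI1, 0.129 for UBP5 and 0.147 for YGP1. SPI1, which encodes a GPI-anchored cell wall protein, measured 957 and 1366 in pmt1 pmt2, against 269 and 327 in wild type. UBP5 encodes a putative ubiquitin protease and YGP1 a secreted glycoprotein, and their folds were 3.87 and 3.81. With 4 arrays in 2 groups, any gene about equally changed comes out close, so the likeness is a description only. The genes on either side of PCL1 and PCL5 had log2 changes near 0. RFC3 and CAF40, which flank PCL1, gave −0.11 ± 0.49 and 0.013 ± 0.36 (SE), and TRM5 and ERG7, which flank PCL5, −0.039 ± 0.63 and 0.075 ± 0.35 (SE).

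The kinase and its other partners gave no call. PHO85 itself measured 199 and 244 in pmt1 pmt2, against 183 and 183 in wild type (1.20-fold, limma adjusted p = 0.994). PHO81, the inhibitor of the Pho80-Pho85 complex, measured 163 and 148 against 221 and 161, and PHO4 27.4 and 56.3 against 43.1 and 90.8. Of the 15 genes for Pho85, its inhibitor and its substrates, 0 passed limma's test. The count was also 0 at unadjusted p under 0.05, against 5.37% of all genes higher and 1.80% lower. These 15 genes had a median log2 change of −0.037. That median was 0.31 or −0.27 with pmt1 pmt2 array 1 or 2 left out and −0.050 or 0.23 with wild type array 1 or 2 left out, so it has no settled direction. GSY2, the main glycogen synthase and a substrate of Pho85 with Pcl8 or Pcl10, measured 74.6 and 160 in pmt1 pmt2, against 41.7 and 59.5 in wild type (log2 change 1.13 ± 0.48 (SE), limma adjusted p = 0.731). GSY1, the other isoform, measured 30.9 and 68.2 against 84.2 and 74.7 (log2 change −0.79 ± 0.47 (SE)). With pmt1 pmt2 array 1 or 2 left out, the log2 change was 1.68 or 0.58 for GSY2 and −0.22 or −1.36 for GSY1. BNI4, a bud neck scaffold phosphorylated by Pho85 with G1 cyclins, measured 112 and 135 against 173 and 160 (log2 change −0.43 ± 0.35 (SE)).

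Of the 17 measured targets of Pho4, which Pho80-Pho85 restrains, 0 passed limma's test. With the array number as a block in the fit 1 passed as higher, against 2.32% of all genes. Among the 17 targets, 2 (GPP2 and the dim PHM8) were higher and 0 lower at unadjusted p under 0.05, against 5.37% and 1.80% of all genes. The median of their log2 changes was 0.42, and 0.26 and 0.57 in the array pairs numbered 1 and 2. With pmt1 pmt2 array 1 left out it was 0.68, and over the 9 targets with a mean log2 of at least 6 it was 0.16. GPP2, a glycerol phosphatase also induced by osmotic stress, measured 315 and 745 in pmt1 pmt2, against 109 and 209 in wild type. PHO89, a sodium-coupled phosphate transporter, measured 47.6 and 64.9 against 28.6 and 34.3, and PHM8 21.0 and 33.5 against 11.6 and 4.80, above background on pmt1 pmt2 array 2 alone. PHO11 and PHO12 were not analysed here.

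Among the 9 cyclins of Cdc28, the main cell cycle kinase, 0 passed limma's test, with a median log2 change of 0.16. At unadjusted p under 0.05, 1 gene was higher and 0 lower, against 5.37% and 1.80% of all genes. That gene was CLN1, a G1 cyclin transcribed in late G1 like PCL1. It measured 261 and 313 in pmt1 pmt2, against 146 and 112 in wild type, without overlap (log2 change 1.16 ± 0.36 (SE), limma adjusted p = 0.490). CLN2 measured 269 and 372 against 221 and 241, and CLB6 30.3 and 26.2 against 58.7 and 31.3. The 16 genes of the late G1 factors SBF and MBF had a median log2 change of 0.35, with 0 called. This list includes the factor genes SWI4, SWI6 and MBP1, and shares CLN1 and CLN2 with the Cdc28 cyclins. Its 2 genes higher at unadjusted p under 0.05 were SVS1 and CLN1, with 0 lower, against 5.37% and 1.80% of all genes. SVS1, a wall protein gene controlled by SBF, measured 2654 and 3236 in pmt1 pmt2, against 1023 and 979.9 in wild type (limma adjusted p = 0.229). YOX1, a homeodomain repressor, measured 293 and 293 against 193 and 147. SWI4, the DNA-binding subunit of SBF, stayed under background on all arrays so no direction is given for it. With pmt1 pmt2 array 1 or 2 left out the SBF and MBF median was 0.69 or 0.021, and with wild type array 1 or 2 left out it was 0.070 or 0.54. The Cdc28 cyclin median was 0.20 or 0.016 and 0.12 or 0.041 in the same fits.

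The 16 measured members of the Gcn4 target list, which includes GCN4, centred on a log2 change of 0.85 by their median, with 1.02 and 0.90 for the array numbers. ARG1 passed limma's test and the other 15 did not. The count was 0 after quantile normalization, with log2 values below 4 raised to 4, or over every probe set. Of the 16, 7 were higher and 0 lower at unadjusted p under 0.05, against 5.37% and 1.80% of all genes. ARG1, for argininosuccinate synthetase, rose to 1435 and 1495 in pmt1 pmt2, against 146 and 121 in wild type (11.0-fold, limma adjusted p = 0.0364). The call depended on processing, as limma's adjusted p was 0.0575 after quantile normalization, 0.239 with log2 values below 4 raised to 4, and 0.307 over every probe set. Without pmt1 pmt2 array 1 or 2 the log2 change of ARG1 was 3.49 or 3.43. Those fits leave 1 mutant array, so only the size is given, and it does not show that the call holds. SNZ1, of vitamin B6 synthesis, measured 136 and 204 against 24.0 and 34.0, and ARG4, for argininosuccinate lyase, 1959 and 1703 against 632 and 512. GCN4 itself measured 2557 and 3022 in pmt1 pmt2, against 2238 and 2614 in wild type, with overlapping groups (1.15-fold, limma adjusted p = 0.994). Gcn4 is controlled mainly in translation and protein stability, which arrays do not measure. The log2 changes of the list ran from −0.49 to 3.46. What part Gcn4 or the late G1 factors have in the PCL5 and PCL1 values was not tested.

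**Figure D4:**
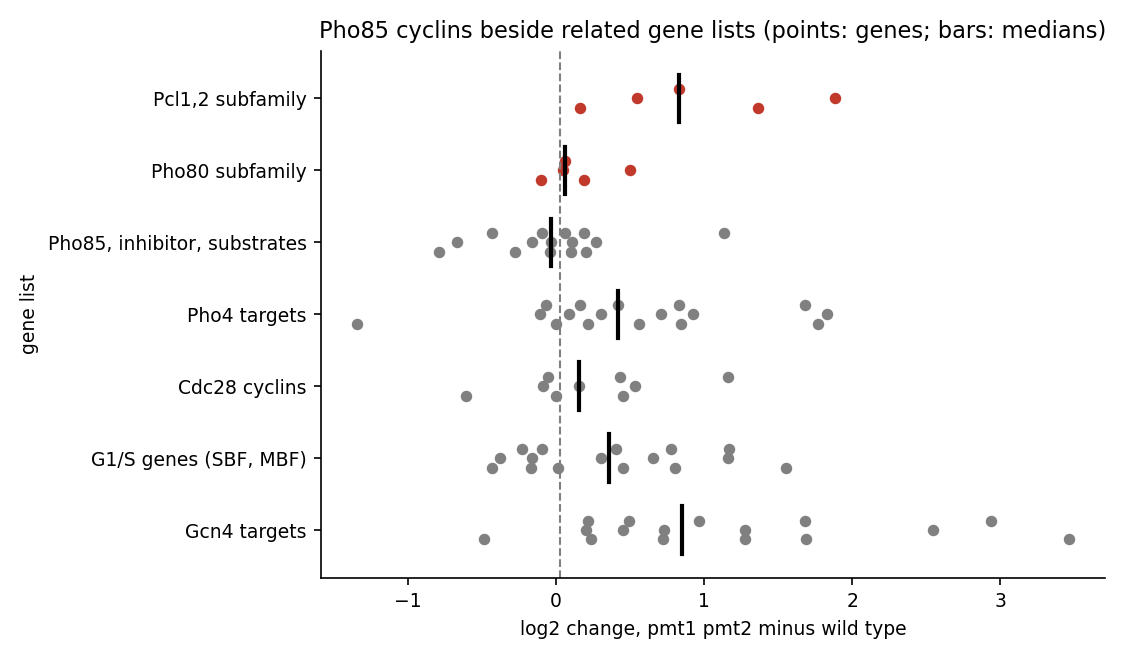
Log2 change (pmt1 pmt2 minus wild type) of every measured gene in the Pcl1,2 and Pho80 subfamilies (red) and in 5 related lists (grey). Each point is a gene, black bars are list medians and the dashed line is the median of all genes, 0.027. The Pcl1,2 subfamily and the Gcn4 targets have the highest medians of these lists, 0.83 and 0.85.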

How the data were processed

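The deposited values are probe set signals (intensity) on a linear scale, 1 column per array, from 0 to 12590.3. Per the submitters' processing notes GCRMA was used, with no version or settings. Zeros and unequal array medians (54.4 to 66.1) are unusual for it, so the summary used by the authors is uncertain. Here log2 was taken after replacing zeros by 0.1, with no further normalization or filter. Of 9335 probe sets, 6504 named 1 gene, and for 315 genes with several the brightest on average was kept. The test was limma's moderated, two-sided test (version 3.58.1, R 4.3.3), with Benjamini-Hochberg adjustment over all 5656 genes. It was also run on simulated data whose noise was independent between arrays. That simulation therefore does not cover deviations shared by same-numbered arrays. Intervals are limma's, unadjusted. The number of arrays limits the precision.

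All members are named, with up to 3 genes of smallest p from each other list and a few fixed regulators. Members, lists and rules were chosen with earlier results of these data known. R64 served for names and gene order only. No sequences were used here, and 1 planned gene list is not reported here. Alternatives were other handling of zeros and low values, the log offset, normalization, filters, eBayes settings, probe set choice, the array number as a block, and leaving out each array.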

Additional observations from a re-analysis of the deposited data

How the results depend on the processing

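Of 15 alternatives that kept the design without a block, 0 gave a call for any member. When the array number entered the fit as a replicate block, PCL1 (limma adjusted p = 0.0159) and PCL5 (0.0453) passed, 2 of 10 members against 3.02% of all genes. In that fit 5 Gcn4 targets passed (ARG1, SNZ1, ARG4, ARG3 and HIS4, the last 2 named after their values were seen), 1 Pho4 target (GPP2) and 1 SBF and MBF gene (SVS1). The a-cell gene MFA2 also passed there, lower in pmt1 pmt2 (limma adjusted p = 0.00825), as did PMT1 and PMT2. Deviations from the group means of same-numbered arrays correlated at 0.65 over genes, but 2 numbers are too few to show that they pair the samples. Without the block, limma's adjusted p ran from 0.0590 to 0.543 for PCL1 and from 0.181 to 0.887 for PCL5. The family's median log2 change was 0.55 when 3 members with a mean log2 under 6 were left out, and 0.24 to 0.44 when 1 array was left out. Leaving out 1 array gave log2 changes of −0.22 to 0.54 for CLG1, −0.28 to 0.41 for PCL10, −0.56 to 0.35 for PCL6, −0.044 to 0.42 for PCL7, −0.32 to 0.41 for PHO80, −0.63 to 0.011 for STE3 and −0.52 to 0.18 for SWI4, so their directions depend on single arrays. PCL10 was −0.022 after quantile normalization, and PHO80 −0.042 there and −0.017 after centring. PCL1, PCL2, PCL5, PCL8 and PCL9 kept their direction in every alternative in which they were fitted, PCL8 being absent from the fit with a minimum mean log2 of 6. The count of calls over all genes was 22, against 171 with the block, 38 with a minimum mean log2 of 6, 2 after quantile normalization, 1 with values raised to 4, 0 over every probe set (276 at limma's unadjusted p under 0.05), and 0 to 62 without 1 array. The cause was not tested. Dim members (PCL6 and PCL10) lie too near background for small changes to be read.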
